A study of Homo sapiens with 6 samples.

Results

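The insulin-like growth factor axis was examined in the chordoma cell line MUG-Chor1, from its receptors through their substrates to the secreted binding proteins. The members were 10 named genes, and each was read from the probe set that carried its symbol alone and had the highest mean over all arrays. By this rule 9 of the 10 genes had a value, among 18404 genes in all. *IGFBP6* had none, because its probe set carries 2 gene symbols. *IGF1R* entered the list for its difference between large and small cells in these same arrays, so its values are given as a description without a test, and the list was built around it. MUG-Chor1 is 1 cell line derived from a sacrococcygeal chordoma, a bone tumor that resembles the notochord, and all pools came from cultures in serum-containing medium for which the labels name no treatment. The samples were 3 pools of 20 large physaliferous (heavily vacuolated) cells, numbered 2, 3 and 4, and 3 pools of 20 small non-vacuolated cells, numbered 5, 6 and 7. The paper describes picking in quadruplicate for each phenotype and does not say why 3 of each are in this series. The cDNA was amplified pool by pool, and each array (Affymetrix Human Gene 1.0 ST) held 1 pool. Separate cultures for the pools are not stated in the sources used here, so the tests measure only the spread between these pools, and in a pool a lower level in every cell cannot be told apart from fewer cells with the transcript.

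The ligands IGF1, IGF2 and insulin act through the tyrosine kinases IGF1R and INSR, which are close relatives and can form mixed receptors. The activated receptors phosphorylate the docking proteins IRS1 and IRS2, which pass the signal to PI3 kinase and AKT, while SHC1 and GRB2 pass it to RAS and ERK. IGF2R has no kinase and removes IGF2 from the cell surface for lysosomal degradation, besides sorting lysosomal enzymes by their mannose 6-phosphate tags. The IGFBP proteins are secreted and hold the ligands outside the cell. IGF1R signaling has been studied in chordoma as a growth pathway.

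All values are log2 expression after robust multi-array averaging, and levels of different genes come from different probe sets and were not ranked against each other. An expression floor was set at log2(100), that is 6.64. Array medians lay between 6.64 and 6.68 in large and between 6.73 and 6.76 in small pools, and the median log2 fold change of all genes was -0.11, with 66.4% of genes lower in large cells. The 9 chordoma and notochord markers examined, among them *TBXT*, *KRT8* and *KRT19*, were above the floor in all 6 pools, with log2 fold changes of 0.06, 0.19 and -0.03 for these 3. All 8 fibroblast markers had lower means in large cells, and their average ran from 6.70 to 6.84 in large and from 6.96 to 7.24 in small pools, with *DCN* and *FAP* below the floor in every pool. Of the 4 blood cell markers *PTPRC* and *HBB* were below the floor in every pool, *CD14* was above it in 1 large and all 3 small pools, and *CD68* was above it in all 6 pools. On average *CD68* reached 8.88 ± 0.18 in large and 8.28 ± 0.39 in small pools (SD, n = 3 pools each), a log2 fold change of 0.60 in the direction of *IGF1R*. Its pools overlapped, with small pool 5 at 8.71 and large pool 3 at 8.67 (adjusted p = 0.33 from limma). The average of 8 proliferation genes ran from 6.49 to 8.66 in large and from 7.20 to 8.09 in small pools, so these overlapped. The part of these differences in the results below was not tested.

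The members whose pools did not overlap between the phenotypes were *IGF1R*, *INSR* and *IRS2*. These are 3 of 9 members, beside 27.0% of all genes, and *IGF1R* was chosen for its difference. The 250 bases before their transcription start are shown as the regulatory sequence of these 3 genes. The sequences are from RefSeq on GRCh38.p14, with chr15:98648289-98648538 on the plus strand for *IGF1R*, chr19:7294415-7294664 on the minus strand for *INSR* and chr13:109786584-109786833 on the minus strand for *IRS2*. Capitals mark GC boxes, the letters GGGCGG or their reverse complement CCGCCC, with overlapping matches run together.
IGF1R: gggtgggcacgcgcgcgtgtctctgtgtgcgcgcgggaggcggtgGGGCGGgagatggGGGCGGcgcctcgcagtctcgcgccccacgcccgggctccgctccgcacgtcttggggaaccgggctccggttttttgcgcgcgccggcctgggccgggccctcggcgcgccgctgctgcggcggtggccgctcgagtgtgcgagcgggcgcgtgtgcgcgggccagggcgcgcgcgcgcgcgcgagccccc
INSR: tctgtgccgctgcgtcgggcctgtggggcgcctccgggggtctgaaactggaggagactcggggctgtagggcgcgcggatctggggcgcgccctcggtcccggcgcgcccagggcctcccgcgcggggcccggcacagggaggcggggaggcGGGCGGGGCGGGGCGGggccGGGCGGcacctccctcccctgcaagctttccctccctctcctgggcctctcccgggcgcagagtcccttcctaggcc
IRS2: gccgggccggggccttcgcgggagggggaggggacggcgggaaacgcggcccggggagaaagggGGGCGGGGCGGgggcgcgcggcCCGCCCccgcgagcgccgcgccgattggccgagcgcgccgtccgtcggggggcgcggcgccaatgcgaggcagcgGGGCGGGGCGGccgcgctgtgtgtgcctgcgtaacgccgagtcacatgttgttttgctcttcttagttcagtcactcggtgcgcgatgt
The window held 2 matches in *IGF1R*, 4 in *INSR* and 5 in *IRS2*, and 42.3% of 27305 promoter windows of this length hold at least 1. The GC content was 81.2%, 78.4% and 76.4%, against a median of 58% over all windows. Members whose pools overlapped had such windows too, with 80.8% and 4 matches in *IRS1*, 79.2% and 6 in *IGF2R* and 76% and 2 in *IGFBP3*. The GC content was 56.8% in *IGFBP2*, 71.6% in *IGFBP4* and 61.2% in both *IGFBP5* and *IGFBP6*. These letters therefore do not set the 3 genes apart from the other members. None of the 3 windows held TATAAA on either strand, letters that 11.1% of all windows hold and that only *IGFBP4* had among the members. These matches describe the letters and are no measure of binding. The arrays measure transcripts and not these sequences.

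For *IGF1R*, the main receptor for IGF1, all 3 large pools lay above all 3 small pools on the probe set with the higher mean. Its log2 expression was 7.72, 8.21 and 8.24 in large pools 2, 3 and 4 and 6.57, 5.74 and 5.24 in small pools 5, 6 and 7. The expression floor separated the phenotypes, with the large pools above and the small pools below it. The large pools averaged 8.06 ± 0.29 and the small pools 5.85 ± 0.67 (SD, n = 3 pools each). Their difference on the log2 scale was 2.20. Because the small pools lay below the floor, the corresponding 4.61-fold difference is no exact size. The spread among small pools was wider than among large pools, with small pool 5 close to the floor and small pool 7 lowest. Leaving out 1 pool at a time gave log2 fold changes of 1.90 to 2.57.

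The array carries a second probe set for *IGF1R*, and on it the phenotypes differed less. Its log2 expression was 6.89, 7.23 and 6.96 in large pools 2, 3 and 4 and 6.95, 7.05 and 6.10 in small pools 5, 6 and 7. Here the phenotypes overlapped, and small pools 5 and 6 lay within the range of the large pools, while small pool 7 was again lowest. The large pools averaged 7.03 ± 0.18 and the small pools 6.70 ± 0.52 (SD, n = 3 pools each), a difference of 0.32. Both probe sets carry the symbol *IGF1R* alone, and their means over all arrays were 6.95 and 6.86, so the rule took the first by a narrow margin. The first was brighter in every large pool and the second in every small pool. The difference between phenotypes therefore entered the choice of probe set. The first minus the second was 0.83, 0.97 and 1.29 in large pools 2, 3 and 4 and -0.38, -1.30 and -0.87 in small pools 5, 6 and 7. With both probe sets averaged the difference was 1.26. In the platform annotation the first probe set is listed with 2 accessions and the second with 7. The sources used here do not give the part of the transcript that each probe set reads, and the *IGF1R* difference rests on 1 of 2 readouts of the gene.

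**Figure D1:**
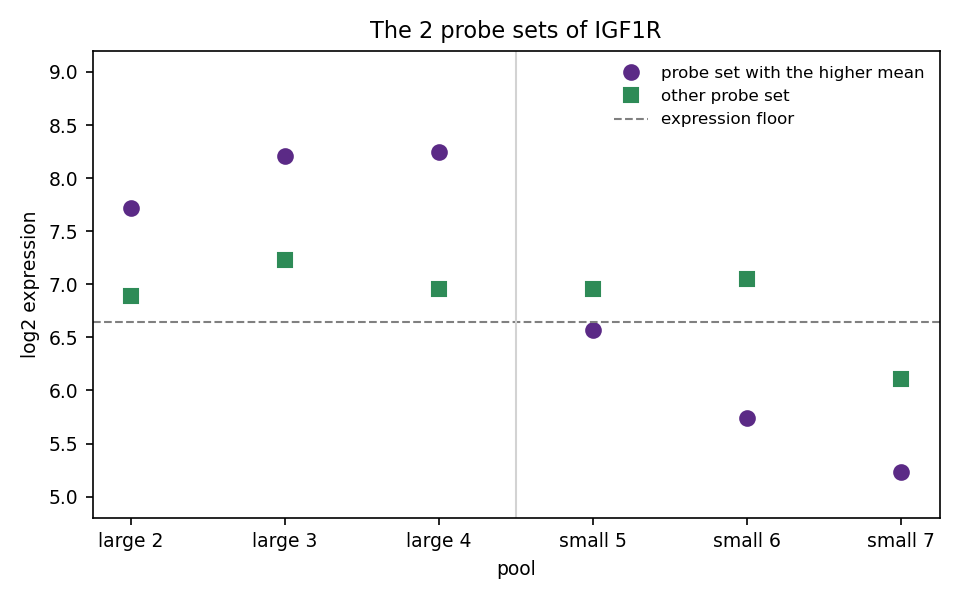
Log2 expression (vertical axis) of the 2 *IGF1R* probe sets in each of the 6 pools (horizontal axis), with the dashed line at the expression floor of 6.64. On the probe set with the higher mean (circles) all large pools lie above all small pools, whereas on the other (squares) small pools 5 and 6 lie among the large pools.

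The gap of 1.88 between the log2 fold changes of these probe sets was wide beside all genes with at least 2 probe sets, most of which differed little. Over 637 genes with at least 2 probe sets of 1 symbol, the median absolute gap between the 2 brightest was 0.25, and 13 genes (2.04%), *IGF1R* among them, had a gap of 1.88 or more. Among the 406 genes whose 2 probe sets both passed the floor on at least 1 array, 10 genes (2.46%) had such a gap. These shares describe the array, and the gap of *IGF1R* was seen before they were computed. Because *IGF1R* was chosen for a large difference, a wide gap was likely from the outset. Genes with a like difference on the probe set with the higher mean had wide gaps too. *HAUS6* had a difference of 2.24 with a gap of 2.56, and *UGT2A3* 2.21 with 2.24.

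**Figure D2:**
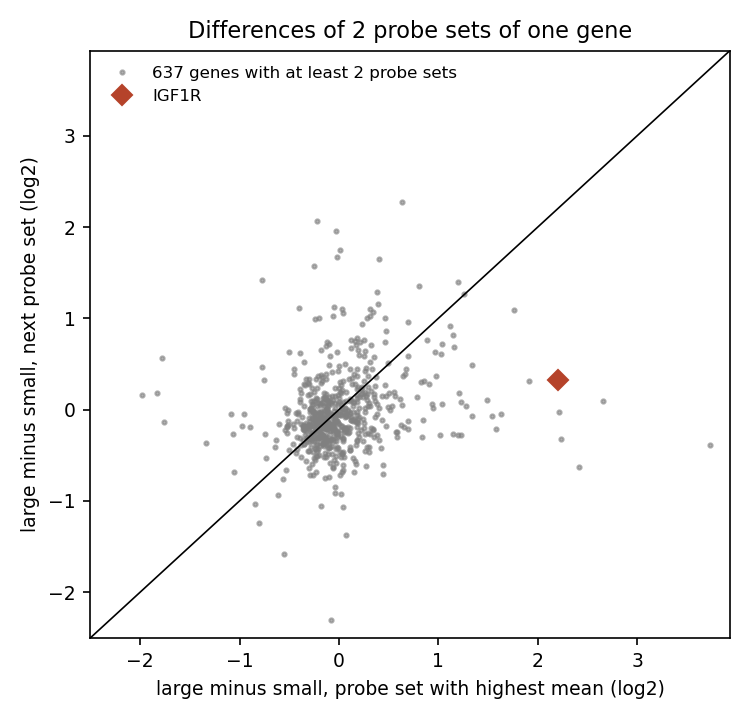
Difference of large minus small pools on the log2 scale on the probe set with the highest mean (horizontal axis) and on the next one (vertical axis) for 637 genes with at least 2 probe sets. Points on the line have equal differences on both, and *IGF1R* (diamond) lies at 2.20 and 0.32.

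*INSR*, the insulin receptor, had lower values in large cells, with every pool of both phenotypes below the expression floor. Its log2 expression was 5.81, 5.73 and 5.90 in large pools 2, 3 and 4 and 5.92, 6.17 and 6.29 in small pools 5, 6 and 7. Every large pool lay below every small pool, though large pool 4 and small pool 5 nearly met. The pools overlapped after a further quantile normalization, after centring each array on its median and after the dependence on signal level was removed. The log2 fold change was -0.31 (standard error 0.13). Over all genes this did not pass (adjusted p = 0.34 from limma), and after the dependence on signal level was taken out of each array, a setting added after the data were seen, it was -0.18.

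*IGF2R*, the scavenger of IGF2, was above the floor in all 6 pools, between 8.25 and 8.57. Its log2 expression was 8.57, 8.47 and 8.51 in large pools 2, 3 and 4 and 8.49, 8.50 and 8.25 in small pools 5, 6 and 7. The pools overlapped, and the log2 fold change of 0.10 had a 95% confidence interval of -0.16 to 0.37 (adjusted p = 0.61 from limma). It was 0.022 without small pool 7 and 0.050 after a further quantile normalization. This was the narrowest spread among large pools of the 9 members (SD 0.05).

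Of the docking proteins, *IRS2* had lower values in every large pool. Its log2 expression was 6.50, 6.36 and 6.27 in large pools 2, 3 and 4 and 6.75, 6.67 and 6.73 in small pools 5, 6 and 7. The small pools lay just above the expression floor and the large pools below it, so the size is uncertain. The difference of -0.34 had a standard error of 0.10 and a 95% confidence interval from -0.59 to -0.09, and it did not pass over all genes (adjusted p = 0.32 from limma). It was -0.26 after a further quantile normalization or after centring each array on its median, and -0.18 with the trend with signal level removed. *IRS1*, the other docking protein, was below the floor in all pools, at 6.28, 5.77 and 6.33 in large pools 2, 3 and 4 and 6.53, 6.29 and 6.31 in small pools 5, 6 and 7. Its pools overlapped, with a log2 fold change of -0.25 (95% confidence interval -0.68 to 0.19, adjusted p = 0.48 from limma), which was -0.067 without large pool 3.

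Among the binding proteins, *IGFBP2*, *IGFBP3* and *IGFBP4* were above the floor in all 6 pools and *IGFBP5* in none. *IGFBP2* had 8.80, 8.04 and 8.79 in large pools 2, 3 and 4 and 9.43, 8.67 and 8.93 in small pools 5, 6 and 7 on the log2 scale. Its lowest value was large pool 3 and its highest small pool 5, and the phenotypes overlapped through small pool 6. The log2 fold change of -0.47 had a wide 95% confidence interval of -1.16 to 0.22 (adjusted p = 0.42 from limma), and leaving out large pool 3 moved it to -0.22. *IGFBP3*, the main carrier of IGFs in serum, had 7.97, 8.60 and 8.48 in large and 8.88, 8.11 and 8.28 in small pools, in the same pool order. The pools of the phenotypes were interleaved, and the log2 fold change was -0.07 (95% confidence interval -0.70 to 0.55), a direction that turned to 0.0094 on centred arrays. *IGFBP4*, a mostly inhibitory carrier that the protease PAPPA cleaves, had 7.36, 7.12 and 7.36 in large and 7.50, 7.38 and 7.35 in small pools. Its log2 fold change was -0.13 (95% confidence interval -0.41 to 0.14), close to the median of all genes, and 0.00022 with the trend with signal level removed. *IGFBP5*, a carrier that also binds extracellular matrix, had 5.59, 6.08 and 6.07 in large and 6.03, 5.98 and 5.90 in small pools. Its log2 fold change of -0.06 turned to 0.027 on centred arrays and to 0.0061 after quantile normalization. The adjusted p from limma was 0.89, 0.53 and 0.86 for *IGFBP3*, *IGFBP4* and *IGFBP5*.

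**Figure D3:**
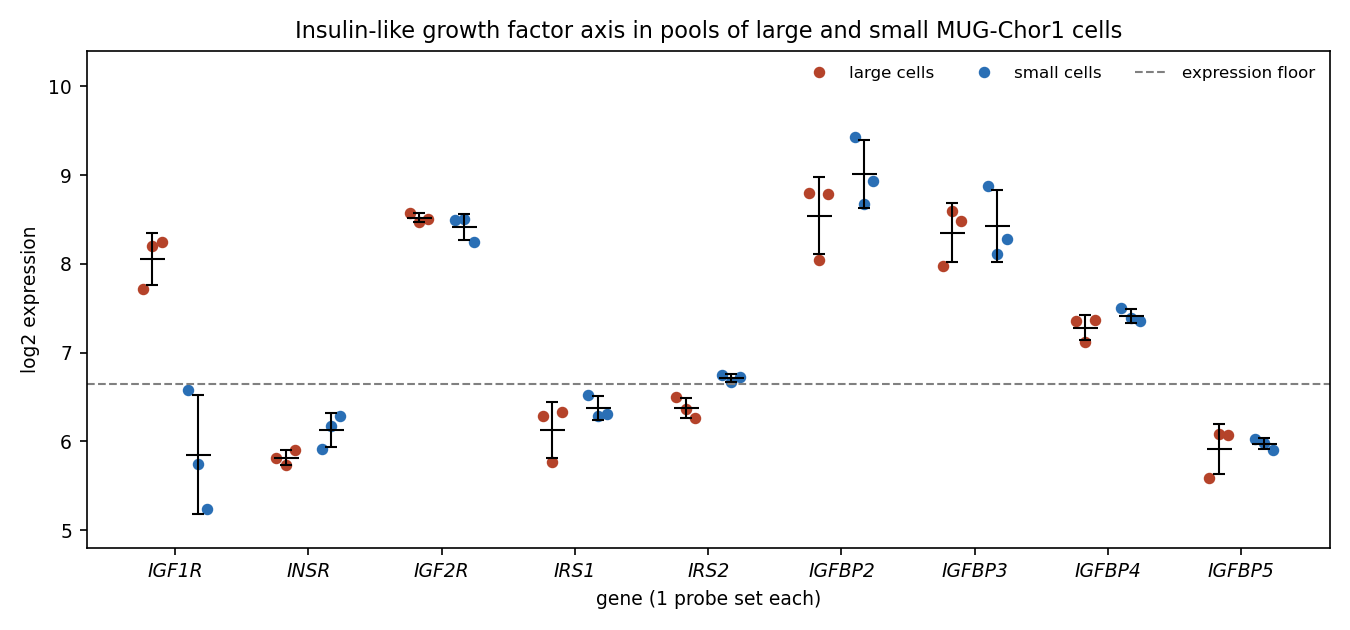
Log2 expression (vertical axis) of the 9 members in each pool of large (red, left) and small (blue, right) cells, with means and SDs (n = 3 pools) and the expression floor of 6.64 dashed. Only for *IGF1R*, *INSR* and *IRS2* do the large and small pools not overlap, with *IGF1R* higher and the others lower in large cells. Over all genes 27.0% do not overlap.

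*IGF1R* was chosen from this contrast and is left out of the following counts. By limma 0 of the 8 other members passed an adjusted p under 0.05 with an absolute log2 fold change above 1, and 0% of the 18404 genes did, the smallest adjusted p being 0.14. At an unadjusted p under 0.05 were 2 of the 8, *INSR* and *IRS2*, both lower in large cells, against 14.8% of all genes in either direction and 10.5% lower. The same 2 genes had pools that did not overlap, against 27.0% of all genes, of which 5.48% were higher and 21.6% lower in large cells. Of the 8 other members 7 had lower means in large cells (median log2 fold change -0.19), against 66.4% of all genes with a median of -0.11. With 3 pools a side, the smallest two-sided p of an exact permutation test is 0.1.

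The genes with the profile most like that of *IGF1R*, by Pearson r over the 6 pools among 11693 genes above the floor in at least 25% of the arrays, were *ZNF195*, *RPL38*, *ANXA3*, *MINDY3* and *HAPSTR1*. Their r ran from 0.974 to 0.994, and 32 genes had an r above 0.95. These correlations describe 6 points in 2 groups. *ZNF195*, a zinc finger gene, had 7.79, 7.83 and 7.87 in large and 7.16, 6.86 and 6.68 in small pools, with small pool 7 lowest as for *IGF1R*. The size of the difference varied, from a log2 fold change of 0.16 for *RPL38*, a ribosomal protein gene, to 1.49 for *MINDY3*, a deubiquitinating enzyme gene.

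The rest of the pathway was read from a list of 82 further genes by role, of which 69 had a value. Of these 19 had higher and 50 lower means in large cells, a median log2 fold change of -0.10 beside -0.11 for all genes. By limma 0 of them passed in either direction, as did 0% of all genes. Of the 69 genes, 3 were higher and 12 lower with p under 0.05 before adjustment, against 4.33% and 10.5% of all genes. On centred arrays the split was 3 and 5, against 1207 and 718 of all genes where the deposited values gave 797 and 1934. After removal of the trend with signal level it was 3 and 1, against 1130 and 462.

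Upstream of the receptors, *IGF1* was at or below the floor in 5 of 6 pools, with 5.91, 6.61 and 5.73 in large and 6.22, 6.72 and 5.99 in small pools. *IGF2* and insulin share 1 probe set with 3 symbols and were not read. The binding protein genes *IGFBP1* and *IGFBP7* had log2 fold changes of -0.23 and -0.32. *PAPPA*, the protease that frees IGF from IGFBP4, had -0.02, and the PAPPA inhibitors *STC1* and *STC2* had -0.30 and -0.07. *INSRR*, the third receptor of the family, had -0.25, and *IGF2BP3*, an RNA-binding protein of *IGF2* mRNA, had -0.03.

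Downstream of the receptors, 3 genes of the list had large pools that all lay above the small pools. These were 3 of the 69 genes of the pathway list, against 5.48% of all genes, and 19 of the 69 had large pools all below the small pools, against 21.6%. *PTPN11*, the phosphatase SHP2 that carries receptor signals to RAS, had 10.58, 10.13 and 10.47 in large and 9.37, 9.87 and 9.71 in small pools, a log2 fold change of 0.74. *GSK3B*, a kinase that AKT inhibits, had 9.32, 9.10 and 9.67 in large and 8.95, 8.26 and 8.42 in small pools, a log2 fold change of 0.82. *RICTOR*, the subunit that defines the TOR complex that phosphorylates AKT, had 7.42, 7.01 and 7.46 in large and 6.50, 6.37 and 6.87 in small pools, a log2 fold change of 0.71. The adjusted p from limma was 0.32 for each of these 3 genes, so none passed. They remained the 3 higher genes among those at an unadjusted p under 0.05 after centring and after removal of the trend with signal level. Both settings raised the median log2 fold change of all genes, to -0.026 and -0.0011, and so favored genes already higher in large cells. Under a filter on expression and variation, which kept 9 pathway genes, 0 were higher at that level.

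For the adaptors the log2 fold changes were 0.12 for *SHC1*, -0.01 for *GRB10*, a restraining adaptor, and -0.52 for *SOS2*, an exchange factor of RAS. *PIK3R1*, the regulatory subunit of PI3 kinase, had 0.44, and *INPPL1*, a phosphoinositide phosphatase, -0.07. The kinase genes *AKT1*, *AKT2* and *MTOR* had -0.08, -0.23 and -0.06. *FOXO1* and *FOXO3*, transcription factors that AKT keeps out of the nucleus, had -0.34 and -0.38. *MAP2K1*, a kinase of the ERK cascade, had -0.47 and *GHR*, the growth hormone receptor, 0.31. The intervals of *SHC1*, *GRB10*, *PIK3R1*, *INPPL1*, *AKT1*, *AKT2*, *FOXO1*, *MTOR* and *GHR* included 0, and none of the named genes passed over all genes. Leaving out 1 pool turned the direction of 6 of the 23 pathway genes named by rule, *GRB10*, *AKT1*, *MTOR*, *INPPL1*, *PAPPA* and *IGF2BP3*. *GRB10* ran from -0.34 without large pool 3 to 0.24 without large pool 4, and *PIK3R1* was 0.19 without large pool 2.

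**Figure D4:**
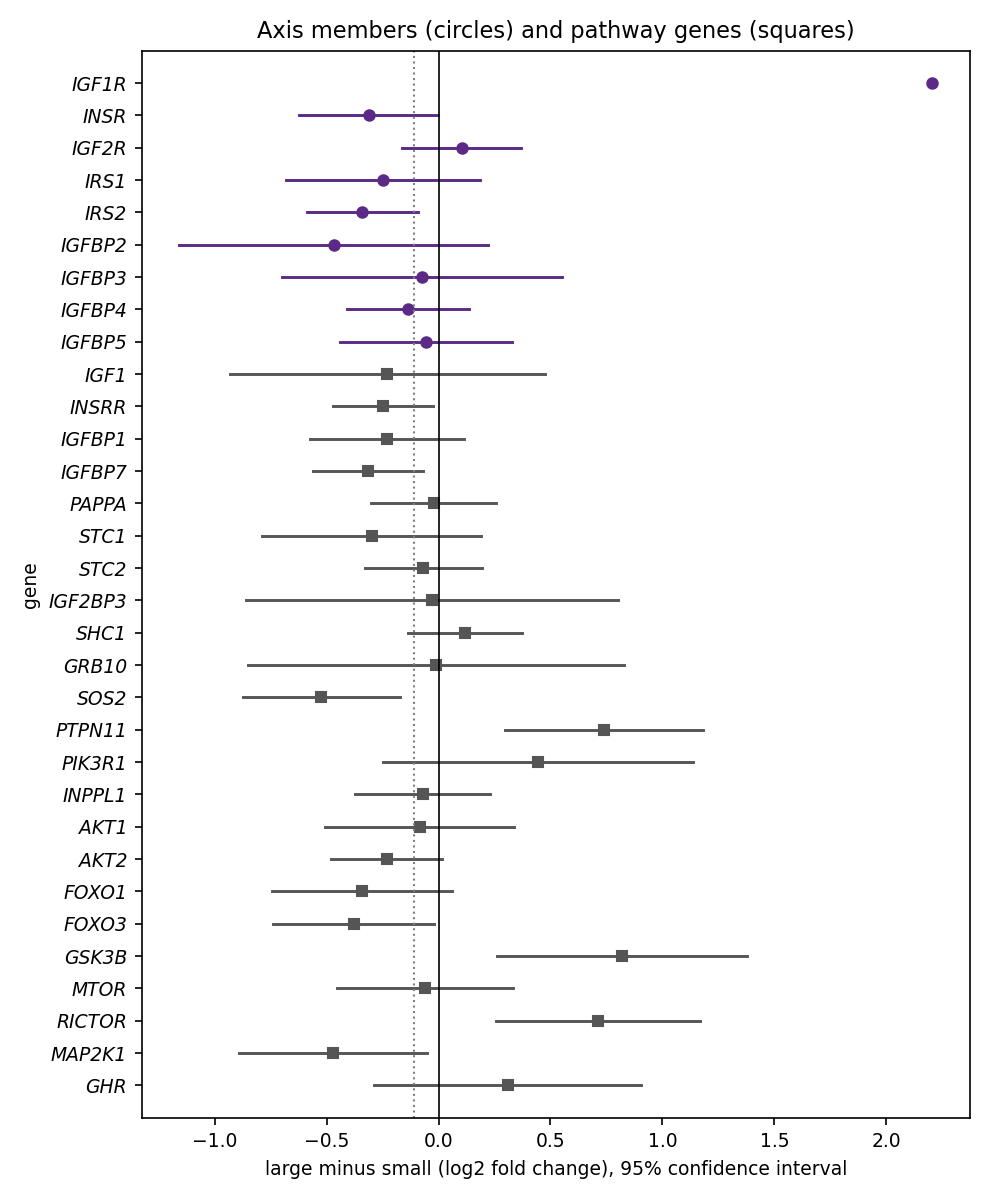
Difference of large minus small pools on the log2 scale (horizontal axis) with 95% confidence intervals from limma (3 pools against 3) for 8 members (circles) and the pathway genes named by rule (squares), and *IGF1R* as a point without an interval. The dotted line is the median of all genes, -0.11. *IGF1R*, chosen for its difference in these arrays, is drawn at 2.20 from the probe set with the higher mean over all arrays, and its other probe set gave 0.32. The other members run from -0.47 to 0.10.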

How the data were processed

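The deposited table holds 1 log2 value per probe set and array, which the authors computed by robust multi-array averaging (background correction, quantile normalization, median polish) without pooling replicates. The affy package is named in the methods, and Affymetrix Expression Console in the submitters' processing notes. Of 32321 probe sets 19158 carried 1 symbol of the platform annotation, 1388 several and 11775 none. Groups and pool numbers came from the labels. Per gene the probe set with the highest mean was kept, and large minus small was tested over 18404 genes with limma 3.58.1 in R 4.3.3, without covariates, with Benjamini-Hochberg adjustment. A gene was called where the adjusted p was below 0.05 and the difference above 1 in size. The study's filter on expression and variation, stated without limits, would remove members and was an alternative (25% of arrays above log2(100), interquartile range above 0.5). Other alternatives changed the scaling, the variance model, array weights, the probe set and the pools. The code was tested on simulated data. Signal over background and the number of pools limit precision.

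The members and lists were chosen with earlier results of these data known. Named were all members, a fixed set of pathway genes and in each role the gene with the largest absolute difference among those whose mean passed the floor, the 5 genes most correlated with *IGF1R*, and 3 markers of the line. *SOS1* was named beside *SOS2* after its value was seen. Some listed genes were not analysed here. The RT-qPCR and array-CGH data were not used here.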

Additional observations from a re-analysis of the deposited data

How the results depend on the processing

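Over 15 alternatives 0 of the 8 members other than *IGF1R* and 0 pathway genes were called, and *IGF1R*, *INSR*, *IRS1*, *IRS2*, *IGF2R* and *IGFBP2* kept their direction wherever they were tested. For *IGF1R*, *INSR* and *IRS2*, whose pools did not overlap, leaving out 1 pool could not turn the direction. The filters and the change of the variance model leave a log2 fold change as it is, so they could not turn any direction either. The log2 fold change of *IGF1R* moved to 1.26 with both probe sets averaged and to 0.32 on the other probe set, a choice added after the data were seen, and was otherwise 1.90 to 2.57. The filter on expression and variation kept 1 of 9 members, *IGF1R*, which passed the floor only through its large pools. Its variation holds the difference it was chosen for, so passing the filter is no added support. The filter called 2 of 2062 genes, *SNORD59B* and *ZNF814*, which were named after their values were seen, and fewer genes were then tested. *IGFBP3* turned to 0.0094 on centred arrays, and leaving out 1 pool gave -0.23 to 0.15. *IGFBP5* turned to 0.0061 after quantile normalization, 0.027 on centred arrays and 0.070 with the trend with signal level removed, and leaving out 1 pool gave -0.14 to 0.11. *IGFBP4* turned to 0.00022 with that trend removed. The cause was not tested. Members whose pools did not overlap, with *IGF1R* counted, numbered 2 to 4 in the 13 alternatives that kept all 9 members. *INSR* overlapped after quantile normalization, on centred arrays and with the trend removed, and *IGF1R* on its other probe set. *IGF2R* did not overlap on centred arrays, and *IRS2* did not overlap in any of the 13. Counts of 4 came only from leaving out 1 pool, where smaller groups separate more easily. With the deposited values 27.0% of all genes did not overlap, and this share was not computed in the alternatives. At an unadjusted p under 0.05 *INSR* was lost after quantile normalization, centring or removal of the trend, and without any 1 pool other than small pool 5, and *IRS2* on removal of the trend. Pathway genes at that level numbered 15, but 8 on centred arrays, 4 with the trend removed, 0 under the filter, and 9, 9 and 8 without large pool 3, small pool 5 or small pool 6, where all genes lower in large cells at that level went from 1934 to 1239, 1021 and 1228. No paired analysis was possible because the large and small pools share no replicate number. Low signal limits *INSR*, *IRS1* and *IGFBP5*, which lay below the expression floor in every pool.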

Other observations

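Other genes with 2 probe sets of 1 symbol also gave unlike differences, and the following were chosen after their values were seen. *TGIF1*, a repressor of TGF-beta signaling, had a log2 fold change of 2.42 on its brighter and -0.63 on its other probe set. *AK4*, a mitochondrial adenylate kinase, had 2.65 and 0.091 on probe sets of nearly equal mean (8.02 and 7.98). In *EIF4H*, a translation initiation factor, the brighter probe set had -0.08 and the other -2.30, so the rule of taking the highest mean leaves that difference out.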
